A study of Mus musculus with 84 samples.

Results

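Cortical interneuron marker genes were followed in neuronal nuclei of the mouse frontal cortex after 1 injection of DOI. The 10 genes were Gad1, Gad2, Slc32a1, Pvalb, Sst, Vip, Lamp5, Reln, Npy and Cck, chosen by name and matched by symbol to the gene IDs of the count files. They are 10 of 55401 gene IDs, and all 10 were among the 17941 genes with enough counts to be tested. DOI (2,5-dimethoxy-4-iodoamphetamine) is an agonist of serotonin 2A receptors and a psychedelic. The mice were of the 129S6/SvEvTac strain and 12 weeks old by the labels. Groups of 4 mice had received vehicle or had been taken 24 h, 48 h or 7 days after DOI, and each mouse belonged to 1 group. The tissue was the frontal lobe in front of bregma, and its nuclei had been sorted for NeuN, a protein of neuronal nuclei. RNA was read with SMART-seq2 and Nextera XT chemistry in 2 libraries per mouse, whose counts were summed. H3K27ac chromatin samples of the series were not analysed here.

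Interneurons of the cortex release the inhibitory transmitter GABA onto nearby cells. GABA is made from glutamate by the decarboxylases encoded by Gad1 and Gad2 and is loaded into vesicles by the transporter encoded by Slc32a1, so these genes mark GABA neurons of every class. The classes are told apart by other genes. Pvalb marks fast-spiking basket and chandelier cells, Sst marks cells that reach the distal dendrites of pyramidal neurons, Vip marks cells that mostly inhibit other interneurons, and Lamp5 with Reln and Npy marks neurogliaform and related cells. Cck marks a basket cell class but is also transcribed in many excitatory cortical neurons, and Npy is also made in a subset of Sst cells.

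Vehicle mice had totals of 9151680 to 11517452 counts, against 6441396 to 8090559 for the 24 h mice, 5834248 to 7344355 for the 48 h mice and 6972577 to 12354785 for the 7-day mice. Every gene of the 10 was counted in every mouse, with 23 to 105 counts per mouse for Slc32a1, 68 to 339 for Pvalb and at least 733 for each of the other genes. Levels are given as CPM, counts scaled to a common library size with TMM factors, and log2 fold changes are given ± SE. The neuronal marker Snap25 was at 2043 CPM or more in every mouse, while the summed CPM of 6 astrocyte genes was at most 338, that of 7 microglia genes at most 146 and that of 6 oligodendrocyte genes at most 373. In the same neuronal list Syt1 was at 810 to 1813 CPM and Rbfox3, the gene of NeuN, at 46.3 to 115 CPM. Rbfox3 thus lay below the astrocyte and oligodendrocyte sums in every mouse. Some measures separated the libraries. CT010467.1, a gene with a clone name, took 0.00694 to 0.0101% of counts in vehicle mice, 0.328 to 1.57% at 24 h and 0.523 to 1.66% at 48 h. At 7 days its share was 0.00834, 0.633, 0.00607 and 0.474% in mice 1 to 4. Camk2a, a gene of excitatory neurons, was at 151 to 222 CPM in vehicle mice, 622 to 2126 at 24 h and 1167 to 1876 at 48 h, and at 128, 1176, 164 and 1005 CPM in the 7-day mice. The sum over the other 11 genes of the excitatory list overlapped between the groups, although single genes of it had log2 fold changes of opposite sign. Their summed CPM was 393 to 469 in vehicle mice, 418 to 483 at 24 h, 402 to 473 at 48 h and 468, 321, 389 and 357 in the 7-day mice. Mitochondrial genes took 0.0171 to 0.0701% of counts in vehicle mice, 0.0621 to 0.101% at 24 h, which overlapped, and 0.108 to 0.268% at 48 h, which did not, and 0.0413, 0.13, 0.021 and 0.114% in the 7-day mice. No library at 24 h or 48 h had a CT010467.1 share as low as the vehicle mice, so this difference between libraries and those groups cannot be told apart.

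Levels of different genes were compared per kilobase of exon. In vehicle mice the order ran from the peptide genes down to the GABA transporter. Sst stood at 731 ± 390.4 CPM per kb (SD, n = 4 mice), Npy at 568 ± 229 and Cck at 389 ± 132. Sst overlapped Npy between mice, and Npy overlapped Cck, so these neighbours did not differ beyond their spread. Vip at 130.2 ± 64.7 CPM per kb and Lamp5 at 118 ± 25.3 also overlapped, and both lay below every Cck value. Gad1 followed at 82.7 ± 10.8 CPM per kb and Gad2 at 43.9 ± 6.50, with no overlap between Gad1 and either Lamp5 or Gad2. The Gad1 range of 69.2 to 92.5 CPM per kb did overlap that of Vip, 78.4 to 225. Pvalb stood at 27.4 ± 7.13 CPM per kb, which touched the Gad2 range, Reln at 6.18 ± 0.423 and Slc32a1 at 1.46 ± 0.192. The order of the group means was the same in all 4 groups. Gad1 had the largest mean CPM in vehicle mice, although Sst, Vip and Cck lay above it in vehicle mouse 1, but ranked 6 per kb, because its exons span 7639 bp against 721 bp for Sst. Slc32a1 shares 697 bp of its exons, 24.9% of their length, with the predicted gene Gm14205 on the other strand. The counting ignored strand and by default drops reads on bases shared by 2 genes, so its level may be a low estimate. Gm14205 itself had 0 counts in all 16 mice.

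**Figure D1:**
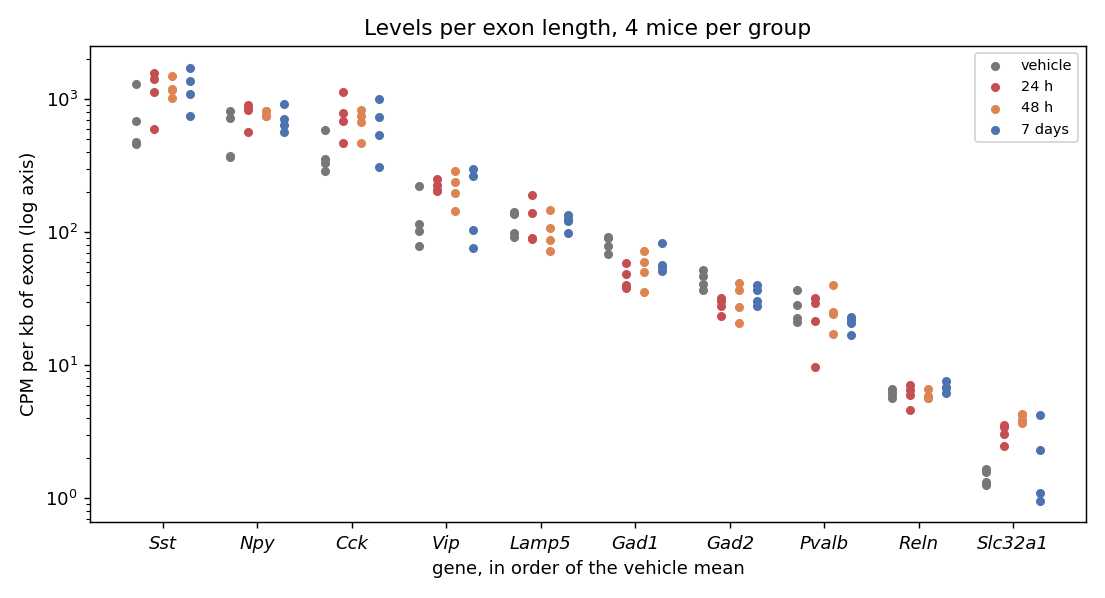
Level of each of the 10 genes in CPM per kb of exon on a log axis, with 1 point per mouse and the 4 groups in columns of different colour. Sst, Npy and Cck lie highest, and Slc32a1 lies lowest in every group.

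The 10 genes differed in how much they varied from mouse to mouse. The SD of log2 CPM between mice of a group, averaged over the 4 groups, was smallest for Reln (0.15) and largest for Vip (0.55), Sst (0.52) and Cck (0.51). The 2 libraries of 1 mouse lay closer together, with a median difference of 0.03 on the log2 scale for Cck and 0.06 for Vip. Slc32a1, with the fewest counts, had the widest gap between libraries of a mouse, a median of 0.20 and a maximum of 1.30 in 48 h mouse 2.

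The first question was whether the genes that make and load GABA differed after DOI. At 24 h both decarboxylase genes fell, while the transporter gene rose. At 48 h Gad1 was still lower and Slc32a1 still higher than in vehicle mice, and at 7 days none of the 3 genes passed the test. Of the 10 marker genes, 4 passed at 24 h (edgeR quasi-likelihood test, Benjamini-Hochberg adjusted p below 0.05 over all genes tested), 2 higher and 2 lower, where 24.2% of all genes tested passed, 13.8% higher and 10.4% lower. At 48 h 2 of the 10 passed, 1 in each direction, against 30.1% of all genes, 16.8% higher and 13.3% lower. The share at 24 h was 40.0% of the 10 genes and that at 48 h 20.0%, above and below the shares over all genes. The 10 genes were chosen with earlier results of these data known, so these shares are a description and not a test. The 3 comparisons with vehicle share the same 4 vehicle mice.

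Gad1 (ENSMUSG00000070880, chr2:70553072-70602014 on the plus strand, build GRCm38) encodes the larger glutamate decarboxylase, which supplies most GABA in the cell body. Its CPM was 706, 690.3, 529 and 602 in vehicle mice 1 to 4, 371, 307, 448 and 289.9 at 24 h, 551, 272, 383 and 456 at 48 h and 638, 393, 418 and 433 at 7 days. All 4 mice at 24 h lay below all 4 vehicle mice, and 3 of 4 did at 48 h and at 7 days. The mean fell from 632 ± 82.5 to 354 ± 71.9 CPM (SD, n = 4), 0.56 times the vehicle mean, with a log2 fold change of -0.84 ± 0.22 (adjusted p = 0.0135). At 48 h the log2 fold change was -0.60 ± 0.22 (adjusted p = 0.0458) and at 7 days -0.43 ± 0.22 (adjusted p = 0.34). The call at 24 h held in each of the 8 fits that left out 1 mouse of these groups. At 48 h it was lost without vehicle mouse 1, 2 or 4 or without 48 h mouse 2, 3 or 4, with adjusted p of 0.055 to 0.144.

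Gad2 (ENSMUSG00000026787, chr2:22622205-22693874, plus strand) encodes the smaller decarboxylase, found mainly at terminals. Its CPM was 303, 274, 217 and 239 in vehicle mice, 179.7, 164, 188 and 138 at 24 h, 246, 123, 162 and 217 at 48 h and 235, 215, 163 and 178 at 7 days. The 24 h and vehicle mice did not overlap, whereas 48 h mice 1 and 4 lay within the vehicle range. The log2 fold change was -0.63 ± 0.21 (adjusted p = 0.0352) at 24 h, where the gene fell to 0.648 times the vehicle mean. It was -0.47 ± 0.21 (adjusted p = 0.0921) at 48 h and -0.39 ± 0.21 (adjusted p = 0.356) at 7 days, neither past the threshold. The 24 h call was lost when vehicle mouse 1, 2 or 4 or 24 h mouse 1, 2 or 4 was left out, with adjusted p of 0.0545 to 0.106. The 2 decarboxylase genes kept close to each other in single mice: CPM of Gad1 over CPM of Gad2 was 2.33 to 2.52 in vehicle mice and 1.88 to 2.39 in 24 h mice, followed by 2.10 to 2.37 in 48 h mice and 1.83 to 2.72 in 7-day mice.

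Slc32a1 (ENSMUSG00000037771, chr2:158610767-158615748, plus strand) encodes the vesicular GABA transporter. Its CPM was 4.63, 4.43, 3.54 and 3.70 in vehicle mice, 8.53, 9.52, 10.0 and 6.86 at 24 h, 11.7, 10.4, 10.8 and 12.0 at 48 h and 3.05, 11.8, 2.69 and 6.44 at 7 days. Every mouse at 24 h and 48 h lay above every vehicle mouse, and the 48 h mice had the smallest SD of log2 CPM of the 4 groups. At 7 days mice 2 and 4 lay above the vehicle range and mice 1 and 3 below it. The log2 fold change was 1.10 ± 0.38 (adjusted p = 0.0443) at 24 h and 1.46 ± 0.38 (adjusted p = 0.0104) at 48 h, 2.14 and 2.75 times the vehicle mean. The 48 h call held without any 1 of the 8 mice, while the 24 h call was lost without each of them in turn (adjusted p of 0.0599 to 0.101). At 7 days the log2 fold change was 0.55 ± 0.38 (adjusted p = 0.49), and without 7-day mouse 2 it was -0.02. The 7-day mice with high Slc32a1 were those with CT010467.1 shares of 0.633% and 0.474% and the higher mitochondrial shares and Camk2a levels given above, while their sums over the other 11 excitatory genes were the lowest of the group, and the part of these differences, or of the mitochondrial share at 48 h, in the Slc32a1 result was not tested. In bulk nuclei, fewer cells of a type and less RNA per cell cannot be told apart, which holds for every level given here.

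Over the 10 genes, the groups of 4 mice did not overlap for Gad1, Gad2 and Slc32a1 at 24 h, where the groups did not overlap for 35.7% of all genes tested. At 48 h they did not overlap for Slc32a1 alone, against 38.1% of all genes, and at 7 days for none, against 5.85%. An overall test across the 4 groups called Gad1 (adjusted p = 0.0459) and Slc32a1 (adjusted p = 0.0415), 2 of 10 genes where 18.8% of all genes passed.

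**Figure D2:**
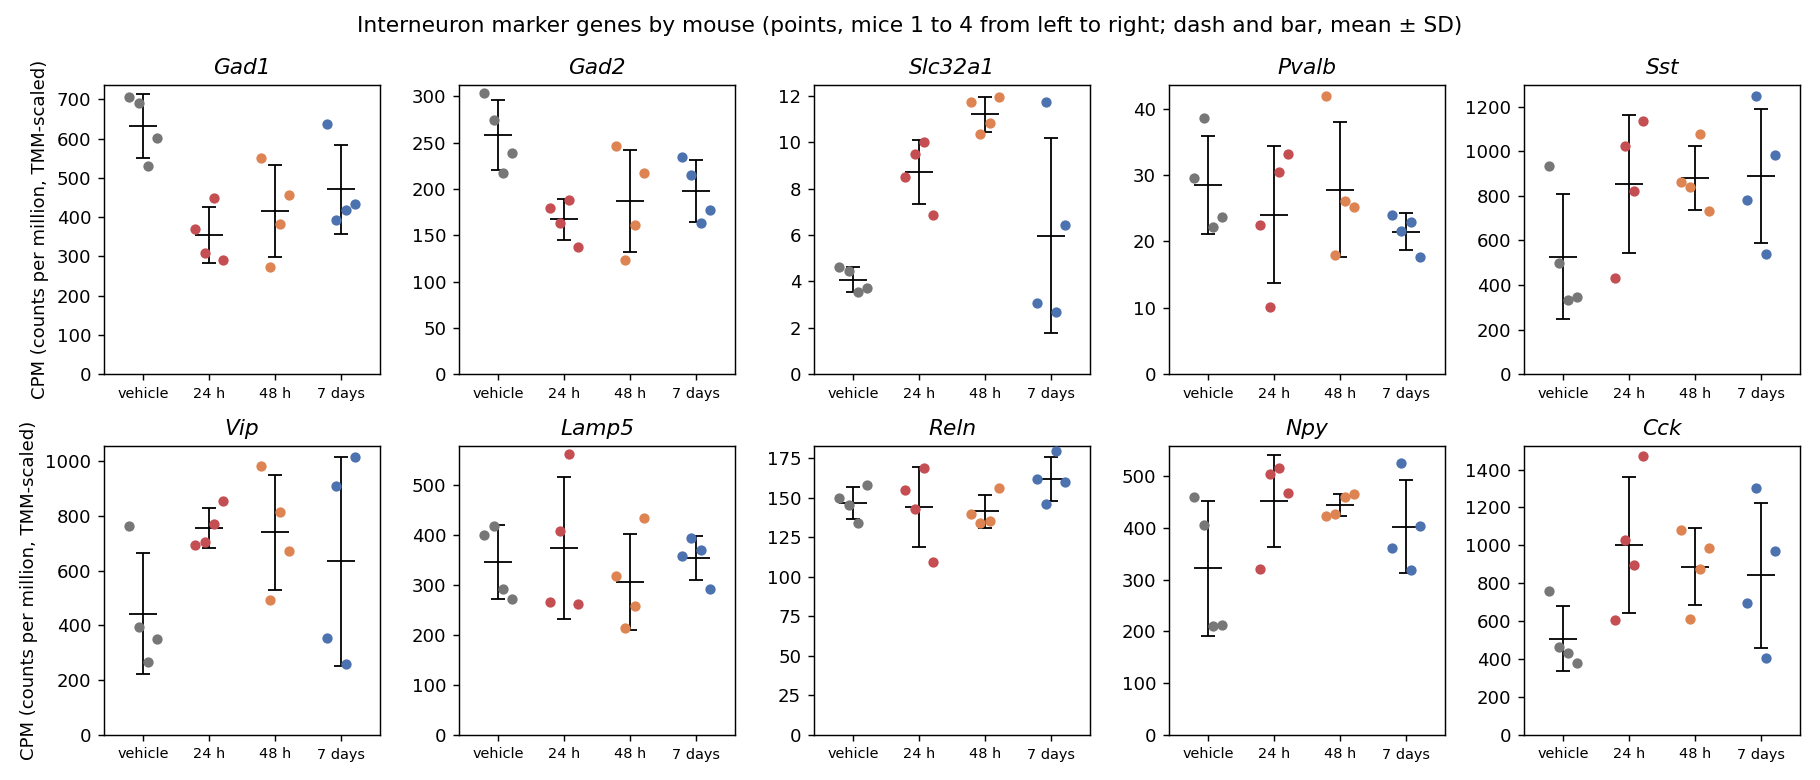
CPM of each gene in every mouse, with 1 panel per gene, points for mice 1 to 4 from left to right in each group, and the mean ± SD as a dash and bar. Gad1 and Gad2 lie lower and Slc32a1 higher at 24 h than in every vehicle mouse, and the 7-day mice spread widely for Slc32a1, Vip and Cck.

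The start sites of these 3 genes are shown because Gad1 and Gad2 fell together at 24 h while Slc32a1, in the same pathway, rose. Each RefSeq window (build GRCm38.p6, plus strand) runs from 250 bases before to 50 after the start, 5′ to 3′, and capitals mark a motif match.
Gad1, chr2:70561879-70562178: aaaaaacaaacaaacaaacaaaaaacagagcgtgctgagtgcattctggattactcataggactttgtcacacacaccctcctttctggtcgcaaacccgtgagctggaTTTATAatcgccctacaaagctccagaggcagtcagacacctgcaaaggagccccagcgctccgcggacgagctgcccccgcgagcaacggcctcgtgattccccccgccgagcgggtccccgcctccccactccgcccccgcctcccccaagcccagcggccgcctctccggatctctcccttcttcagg
Gad2, chr2:22622077-22622376: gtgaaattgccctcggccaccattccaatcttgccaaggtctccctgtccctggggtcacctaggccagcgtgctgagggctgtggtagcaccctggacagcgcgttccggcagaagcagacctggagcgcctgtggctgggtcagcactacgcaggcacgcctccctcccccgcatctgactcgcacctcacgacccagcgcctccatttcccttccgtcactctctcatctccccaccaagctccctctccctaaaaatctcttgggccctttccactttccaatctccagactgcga
Slc32a1, chr2:158610508-158610807: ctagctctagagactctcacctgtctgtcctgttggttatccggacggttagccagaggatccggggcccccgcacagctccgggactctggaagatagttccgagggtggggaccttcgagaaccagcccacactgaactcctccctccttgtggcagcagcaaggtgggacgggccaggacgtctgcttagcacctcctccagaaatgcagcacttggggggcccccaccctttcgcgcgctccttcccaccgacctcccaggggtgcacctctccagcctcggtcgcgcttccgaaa
Motifs searched on both strands were the cAMP response element (CRE, TGACGTCA), the AP-1 site (TGANTCA), the NGFI-B element (AAAGGTCA), an E-box (CAGCTG) and the TATA box (TATAAA). No letters of one motif overlap a match of another in these windows. The capitals in Gad1 are a TATA box match on the minus strand at -141 from the RefSeq start, which lies inside the gene span of the count files. The TATA box letters are found in 13.6% of the 32851 windows in the table. The Gad2 and Slc32a1 windows held none of the 5 motifs. GC content was 60.0% for Gad1, 61.3% for Gad2 and 63.3% for Slc32a1, against a median of 52.7% over all windows.

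The neuropeptide genes were the next question. Cck rose at 24 h, to 1.97 times the vehicle mean, and Sst, Vip and Npy did not pass the test at any time in the fit of the 4 groups. Without the filter on low counts Vip passed at 24 h (adjusted p = 0.0423) and Sst at 48 h (adjusted p = 0.0497). With only the 2 groups compared Vip passed at 24 h (adjusted p = 0.0304) and 48 h (adjusted p = 0.046) and Sst at 48 h (adjusted p = 0.0402). Their log2 fold changes lay above 0 at 24 h, 48 h and 7 days, between 0.32 (Npy at 7 days) and 0.77 (Vip at 24 h). Vehicle mouse 1 was the highest vehicle mouse for all 4 peptide genes, and its values decided several calls.

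Cck (ENSMUSG00000032532, chr9:121489824-121495694, minus strand) encodes cholecystokinin. Its CPM was 761, 462, 432 and 378 in vehicle mice, 608, 1028, 899 and 1469 at 24 h, 1079, 610.5, 873 and 985 at 48 h and 697, 1301, 405 and 968 at 7 days. Of the mice at 24 h and at 48 h, 3 of 4 lay above every vehicle mouse. Against vehicle, Cck had a log2 fold change of 0.98 ± 0.32 (adjusted p = 0.0361) at 24 h, 0.80 ± 0.32 (adjusted p = 0.0668) at 48 h and 0.73 ± 0.32 (adjusted p = 0.26) at 7 days. The 24 h call was lost without vehicle mouse 2, 3 or 4 or 24 h mouse 2 or 4 (adjusted p of 0.0668 to 0.141). Without vehicle mouse 1 the 48 h value passed (log2 fold change 1.07, adjusted p = 0.0375). With vehicle mouse 1 kept it also passed with DESeq2, total counts, library 2 alone, no filter on low counts and only the 2 groups compared (adjusted p of 0.00989 to 0.0462).

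Sst (ENSMUSG00000004366, chr16:23889573-23890958, minus strand) encodes somatostatin. Its CPM was 934, 497, 333 and 344 in vehicle mice, 430.3, 1023, 822 and 1137 at 24 h, 864, 840.5, 1079 and 735 at 48 h and 784, 1248, 538 and 983 at 7 days. The groups overlapped at each time through vehicle mouse 1 and, at 24 h, also through the low 24 h mouse 1. Against vehicle, the log2 fold change of Sst was 0.69 ± 0.33 (adjusted p = 0.133) at 24 h, 0.74 ± 0.33 (adjusted p = 0.0986) at 48 h and 0.75 ± 0.33 (adjusted p = 0.261) at 7 days. Without vehicle mouse 1 Sst passed at 24 h (1.12, adjusted p = 0.0281) and at 48 h (1.17, adjusted p = 0.0201).

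Vip (ENSMUSG00000019772, chr10:5639218-5647617, plus strand) encodes vasoactive intestinal peptide. Its CPM was 764, 392, 267 and 349 in vehicle mice, 694, 703, 768 and 853 at 24 h, 982, 491, 814 and 669.5 at 48 h and 352, 908, 258 and 1014 at 7 days. At 24 h the mice were close together, and 2 of them lay above vehicle mouse 1. At 7 days mice 2 and 4 were the highest of the group and mice 1 and 3 lay within or below the vehicle range, the same pairs of mice as for Slc32a1. The log2 fold change was 0.77 ± 0.38 (adjusted p = 0.139) at 24 h, 0.74 ± 0.38 (adjusted p = 0.14) at 48 h and 0.52 ± 0.37 (adjusted p = 0.51) at 7 days. Without vehicle mouse 1 Vip passed at 24 h (1.17, adjusted p = 0.0487) and at 48 h (1.14, adjusted p = 0.0442).

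Npy (ENSMUSG00000029819, chr6:49822710-49829507, plus strand) encodes neuropeptide Y. Its CPM was 459, 406, 209.7 and 212 in vehicle mice, 321, 504, 515 and 468 at 24 h, 423, 427, 459.7 and 464 at 48 h and 361, 526, 319 and 404 at 7 days. Vehicle mice fell into a higher pair (1 and 2) and a lower pair (3 and 4), and the 48 h mice lay between 423 and 464. Against vehicle, Npy had a log2 fold change of 0.49 ± 0.25 (adjusted p = 0.148) at 24 h, 0.46 ± 0.25 (adjusted p = 0.155) at 48 h and 0.32 ± 0.25 (adjusted p = 0.528) at 7 days. The summed CPM of Sst, Vip, Npy and Cck was 2918, 1757, 1241 and 1282 in vehicle mice, 2053, 3258, 3004 and 3927 at 24 h, 3349, 2369, 3226 and 2854 at 48 h and 2194, 3983, 1520.3 and 3369.6 at 7 days. Vehicle mouse 1 lay within the range of the treated mice for this sum, and vehicle mice 2 to 4 lay below every mouse at 24 h and 48 h.

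The windows of Cck and Sst are shown as the peptide gene that passed the test and as the gene known for a cAMP response element in its promoter. Both lie on the minus strand of GRCm38.p6 and are printed 5′ to 3′ along the gene.
Cck, chr9:121495645-121495944: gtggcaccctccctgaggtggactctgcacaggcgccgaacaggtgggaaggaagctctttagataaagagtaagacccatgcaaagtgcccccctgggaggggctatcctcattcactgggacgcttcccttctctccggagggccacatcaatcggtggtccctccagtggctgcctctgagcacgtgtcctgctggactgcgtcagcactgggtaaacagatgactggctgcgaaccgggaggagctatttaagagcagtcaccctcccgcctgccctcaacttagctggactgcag
Sst, chr16:23890795-23891094: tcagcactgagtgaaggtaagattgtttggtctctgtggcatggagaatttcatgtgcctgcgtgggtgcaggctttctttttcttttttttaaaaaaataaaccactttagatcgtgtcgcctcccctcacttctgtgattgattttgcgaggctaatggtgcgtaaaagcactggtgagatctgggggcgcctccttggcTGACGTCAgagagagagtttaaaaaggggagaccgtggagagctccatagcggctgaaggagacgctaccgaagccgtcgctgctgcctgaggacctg
The capitals in Sst mark the CRE, which starts at -48 from the RefSeq start. CRE letters are found in 1.79% of all windows. The Cck window held none of the 5 motifs. Of the 12 windows of the 10 genes (Lamp5 and Pvalb have more than 1), 9 held no motif, and the third window with matches was that of Vip, with TATA box letters at -157, -147 and -30. AP-1 letters are found in 7.81%, the NGFI-B element in 1.51% and the E-box in 16.3% of all windows, and none was in a window of the 10 genes.

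**Figure D3:**
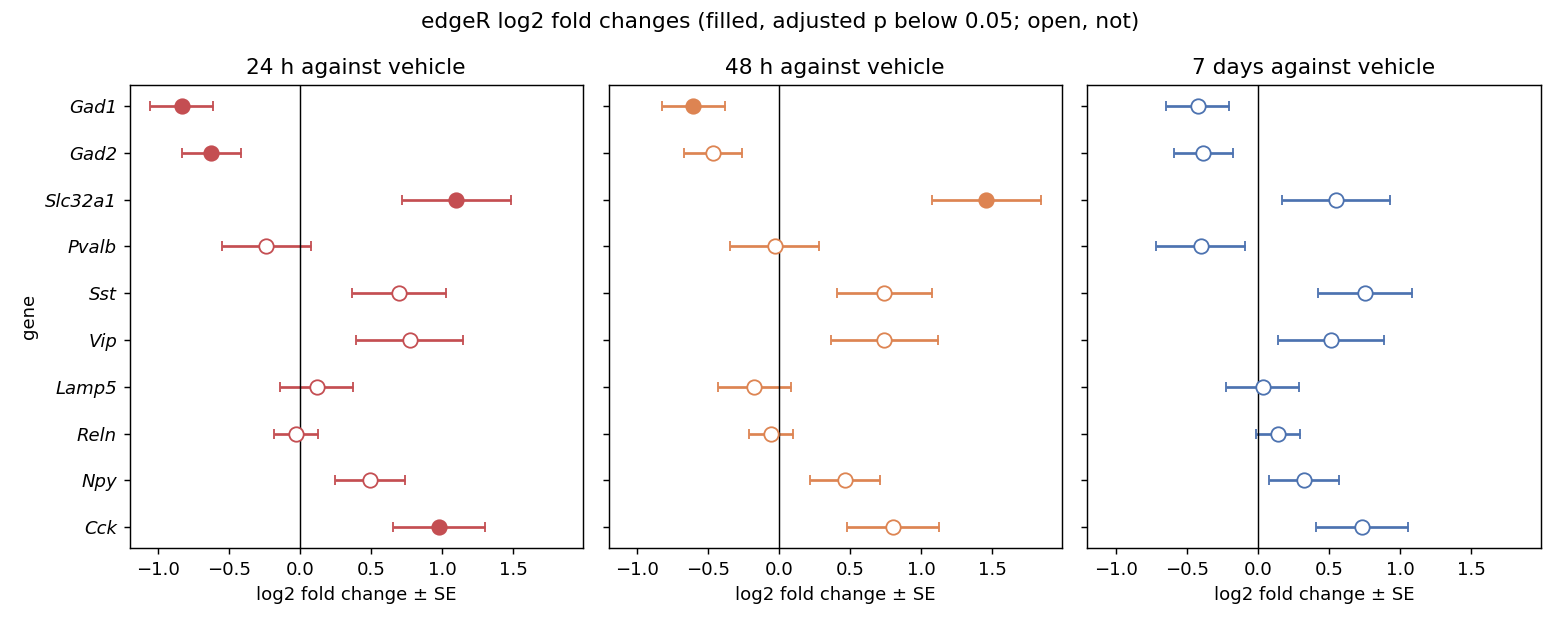
Log2 fold change ± SE of each gene at 24 h, 48 h and 7 days against vehicle, with filled points for adjusted p below 0.05. Gad1 and Gad2 lie below 0 and the 4 peptide genes and Slc32a1 above 0 at each time, and no point is filled at 7 days.

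Pvalb, Lamp5 and Reln did not pass the test at any time. Pvalb (ENSMUSG00000005716, chr15:78191114-78206400, minus strand) encodes the calcium buffer parvalbumin. Its CPM was 29.6, 38.5, 22.2 and 23.6 in vehicle mice, 22.5, 10.1, 30.4 and 33.1 at 24 h, 42.0, 17.9, 26.1 and 25.3 at 48 h and 24.0, 21.5, 22.9 and 17.6 at 7 days. Its log2 fold change was -0.24 ± 0.31 (adjusted p = 0.6) at 24 h, -0.03 ± 0.31 (adjusted p = 0.945) at 48 h and -0.40 ± 0.31 (adjusted p = 0.54) at 7 days. The lowest and the highest value of all 16 mice were those of 24 h mouse 2 and 48 h mouse 1, so the treated groups held both ends of the range.

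Lamp5 (ENSMUSG00000027270, chr2:136052239-136069917, plus strand) encodes a membrane protein of vesicles in neurons. Its CPM was 399, 418, 291 and 272 in vehicle mice, 265, 408, 560.4 and 261 at 24 h, 318, 213, 257 and 433 at 48 h and 358, 393, 369.5 and 291 at 7 days, with overlap at each time. Its log2 fold change against vehicle was 0.11 ± 0.26 (adjusted p = 0.767), -0.18 ± 0.26 (adjusted p = 0.627) and 0.03 ± 0.26 (adjusted p = 0.963) at 24 h, 48 h and 7 days. Reln (ENSMUSG00000042453, chr5:21884454-22344702, minus strand) encodes reelin, a large secreted glycoprotein of the extracellular matrix. It was the steadiest of the 10 genes, with CPM of 149.9, 145, 134 and 158 in vehicle mice, 155, 143, 169 and 109 at 24 h, 139.8, 134, 135 and 156 at 48 h and 162, 146, 179 and 159.7 at 7 days. Its log2 fold change was -0.03 ± 0.15 (adjusted p = 0.907), -0.06 ± 0.15 (adjusted p = 0.809) and 0.14 ± 0.15 (adjusted p = 0.676) in that order. With total-count scaling the sign turned for Reln at 24 h and 48 h (0.075 and 0.043) and for Pvalb at 48 h (0.068).

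No gene of the 10 passed at 7 days, where none of the 17941 genes tested did (0%). At an unadjusted p below 0.05, Sst and Cck were past the line, 2 of 10 against 16.8% of all genes. DESeq2 also called 0 of the 10, while it called 4.44% of all genes. Between the times after DOI no gene of the 10 passed in any of the 3 comparisons, by edgeR or by DESeq2. Over all genes tested by edgeR 0% passed between 48 h and 24 h, 0.00557% between 7 days and 24 h and 0% between 7 days and 48 h, against 0%, 2.16% and 3.15% by DESeq2. The lowest adjusted p of the 10 genes was that of Slc32a1 between 7 days and 48 h (log2 fold change -0.91 ± 0.38, adjusted p = 0.246). It was the only one of these at an unadjusted p below 0.05, where 16.5% of all genes were in that comparison. Without 7-day mouse 2 Slc32a1 passed in that comparison, where 2.14% of all genes then did. The median log2 fold change of the 10 genes was 0.30 at 24 h, 0.22 at 48 h and 0.23 at 7 days, beside 0.03, 0.02 and 0.02 over all genes tested.

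Each class marker was then set against the general GABA genes of the same mouse, as its CPM over the summed CPM of Gad1, Gad2 and Slc32a1. That sum was 1014, 969, 749 and 845 CPM in vehicle mice, 559, 481, 646 and 434 at 24 h, 808, 405, 555 and 685 at 48 h and 876, 619.9, 583 and 617 at 7 days. It consists almost entirely of the 2 decarboxylase genes, so a ratio also moves where those fell. These ratios are a description, with no test.

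The Vip ratio was 0.753, 0.405, 0.356 and 0.413 in vehicle mice, 1.24, 1.46, 1.19 and 1.96 at 24 h, 1.22, 1.21, 1.47 and 0.977 at 48 h and 0.402, 1.46, 0.443 and 1.64 at 7 days. The Cck ratio was 0.75, 0.477, 0.576 and 0.447 in vehicle mice, 1.09, 2.14, 1.39 and 3.38 at 24 h, 1.34, 1.51, 1.57 and 1.44 at 48 h and 0.796, 2.10, 0.695 and 1.57 at 7 days. Both ratios were above every vehicle value in all mice at 24 h and 48 h. At 7 days those of mice 2 and 4 were the higher pair. The Npy ratio was 0.25 to 0.452 in vehicle mice, 0.575 to 1.08 at 24 h and 0.524 to 1.05 at 48 h, again with no overlap. The Sst ratio was 0.407 to 0.921 in vehicle mice, 0.77 to 2.62 at 24 h, which overlapped, and 1.07 to 2.07 at 48 h, which did not. Lamp5 and Reln, whose own levels overlapped, had ratios above the vehicle range at 24 h. These were 0.322 to 0.431 against 0.474 to 0.867 for Lamp5 and 0.148 to 0.187 against 0.252 to 0.297 for Reln. At 48 h both overlapped the vehicle range, at 0.394 to 0.632 and 0.173 to 0.33. The Pvalb ratio was 0.028 to 0.0398 in vehicle mice and 0.0211 to 0.0763 at 24 h, with overlap.

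**Figure D4:**
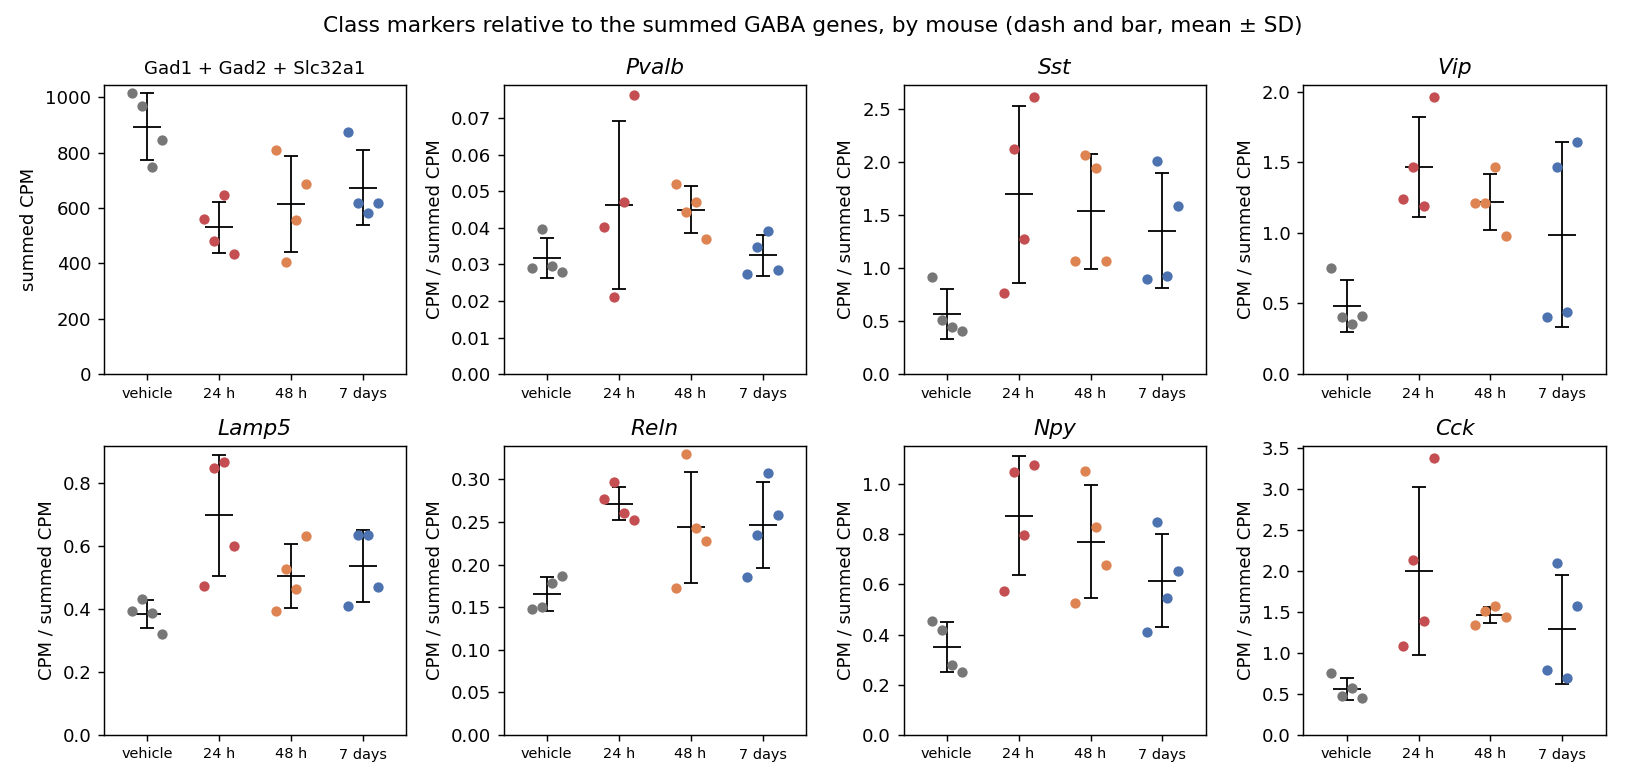
Summed CPM of Gad1, Gad2 and Slc32a1 in the first panel and, in the others, the CPM of each class marker divided by that sum, with 1 point per mouse and the mean ± SD. The Vip, Npy and Cck ratios of all mice at 24 h and 48 h lie above those of every vehicle mouse.

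The other genes of the interneuron pathway and classes were taken from 8 lists, which hold 64 genes beside the 10. Of these, 62 were tested, and 6 passed at 24 h (9.68%), 2 higher and 4 lower. At 48 h 7 passed (11.3%), 5 higher and 2 lower. The shares over all genes tested were 24.2% and 30.1%. These lists too were chosen with earlier results of these data known, and their shares were not tested. At 7 days 0 passed by edgeR, 8 of the 62 had an unadjusted p below 0.05, where 16.8% of all genes did, and DESeq2, which called 4.44% of all genes, called 2, Penk and Sv2c. The median log2 fold change of the tested genes of these lists was -0.14 at 24 h, 0.08 at 48 h and -0.08 at 7 days.

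Abat, the transaminase that breaks GABA down, fell at 24 h, with CPM of 107, 109, 107 and 96.6 in vehicle mice and 37.6, 55.1, 68.6 and 52.1 at 24 h and a log2 fold change of -0.97 ± 0.29 (adjusted p = 0.0209). Dlx6os1, a noncoding RNA of the Dlx locus that marks GABA neurons, fell at 24 h with a log2 fold change of -1.09 ± 0.26 (adjusted p = 0.00834). Its symbol belongs to more than 1 gene ID, of which that with the most counts was used.

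Among transcription factors of the interneuron lineages, Maf of the medial ganglionic eminence list rose at 48 h, with a log2 fold change of 1.12 ± 0.40 (adjusted p = 0.0402). Sp8, of the caudal list, rose at 24 h (1.91 ± 0.58 (adjusted p = 0.0246)) and 48 h (2.05 ± 0.58 (adjusted p = 0.0148)) from 0.569 to 1.95 CPM in vehicle mice, a level near the smallest that the depth could show. In the Pvalb class, Kcnc1, a potassium channel subunit of fast-spiking cells, fell at 24 h (-0.85 ± 0.26 (adjusted p = 0.0238)) and 48 h (-0.73 ± 0.26 (adjusted p = 0.0378)), while its relative Kcnc2 rose at 48 h (0.62 ± 0.19 (adjusted p = 0.0192)). In the Sst class Cbln4, a secreted synaptic organiser, fell at 48 h (-1.03 ± 0.35 (adjusted p = 0.0354)). In the Vip class Igf1, insulin-like growth factor, fell at 24 h (-0.75 ± 0.22 (adjusted p = 0.0223)). No gene of the Lamp5 list passed, and the smallest p at 24 h was that of Id2 (-0.32 ± 0.16 (adjusted p = 0.137)). In the Cck list no gene other than Cck passed, and the smallest p at 24 h was that of Slc17a8 (-0.38 ± 0.62 (adjusted p = 0.68)).

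Markers of other cells were measured beside these results. Camk2a encodes a kinase abundant in excitatory neurons. It rose at 24 h (2.96 ± 0.56 (adjusted p = 0.00308)) and 48 h (2.96 ± 0.56 (adjusted p = 0.00221)), as did the cortical transcription factors Cux2 (1.57 ± 0.36 (adjusted p = 0.00651) at 24 h) and Tbr1 (0.83 ± 0.27 (adjusted p = 0.0347) at 24 h). Of the 12 excitatory genes 3 passed at 24 h (25.0%, beside 24.2% of all genes) and the same 3 with Fezf2 at 48 h (33.3%, beside 30.1%), each higher. The vesicular glutamate transporter genes of the same list had values below 0 that did not pass, Slc17a7 with -0.80 ± 0.30 (adjusted p = 0.0616) at 24 h and -0.77 ± 0.30 (adjusted p = 0.0594) at 48 h and Slc17a6 with -0.64 ± 0.32 (adjusted p = 0.145) and -0.82 ± 0.32 (adjusted p = 0.0607). Of the 3 neuronal genes, Rbfox3, which encodes NeuN, rose at 24 h (0.81 ± 0.20 (adjusted p = 0.0103)) and Snap25 fell (-0.58 ± 0.20 (adjusted p = 0.0395)). Both also passed at 48 h, Rbfox3 with 0.82 ± 0.20 (adjusted p = 0.00775) and Snap25 with -0.62 ± 0.20 (adjusted p = 0.0257). Among glial genes Mbp of myelin fell at 24 h (-0.83 ± 0.28 (adjusted p = 0.0367)), Cnp (-1.02 ± 0.37 (adjusted p = 0.0457)) and Olig1 (-1.26 ± 0.37 (adjusted p = 0.0183)) fell at 48 h, and Cspg4, under 4 CPM in every mouse, rose at 24 h (1.97 ± 0.66 (adjusted p = 0.0367)) and 48 h (2.25 ± 0.66 (adjusted p = 0.0173)). None of the 5 astrocyte and 6 microglia genes tested passed, nor did Tek, the only one of 4 endothelial genes with enough counts to be tested, the smallest p at 24 h being those of Aldoc (-0.57 ± 0.29 (adjusted p = 0.146)), Tmem119 (-0.69 ± 0.40 (adjusted p = 0.211)) and Tek (1.49 ± 0.72 (adjusted p = 0.134)). The part of these shifts in the results for the 10 genes was not tested.

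Projection neurons of the striatum also make GABA and express Gad1, Gad2, Slc32a1 and Penk, so their markers were measured too. The summed CPM of 10 striatal genes was 163, 209.8, 266 and 225 in vehicle mice, 233, 187, 171 and 152 at 24 h, 182, 408, 201 and 294 at 48 h and 361, 946, 249.5 and 841 at 7 days. The 7-day mice 2 and 4 stood apart from all other mice. At 24 h Drd1 (-0.90 ± 0.28 (adjusted p = 0.0272)) and Ppp1r1b (-1.04 ± 0.37 (adjusted p = 0.0484)), which encode the dopamine D1 receptor and a dopamine-regulated phosphatase inhibitor, fell. They were 2 of the 8 striatal genes tested (25.0%, beside 24.2% of all genes), and 3 of the 8 had a log2 fold change above 0 at 24 h. Rgs9, a regulator of G-protein signalling in striatal cells, rose at 48 h (1.77 ± 0.63 (adjusted p = 0.0414)). Doc2g of the olfactory bulb list rose at 24 h (1.52 ± 0.47 (adjusted p = 0.0265)) and 48 h (1.40 ± 0.47 (adjusted p = 0.0318)), and the summed CPM of that list's 9 genes was 508 to 945 in vehicle mice and 301 to 532 at 24 h. Synpr alone made up 378 to 798 and 159.9 to 418 CPM of that sum. At 7 days Penk, a peptide gene of both striatal and Vip cells, was at 332, 941, 186 and 569.6 CPM in mice 1 to 4 and Tac1, a peptide gene of striatal and Pvalb cells, at 58.8, 272, 41.1 and 188. Mice 2 and 4 were again the highest for both, as for Vip, Sst and Cck, and these 2 genes were singled out after their values were seen. The part of striatal RNA in the 7-day values of the 10 genes was not tested.

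**Figure D5:**
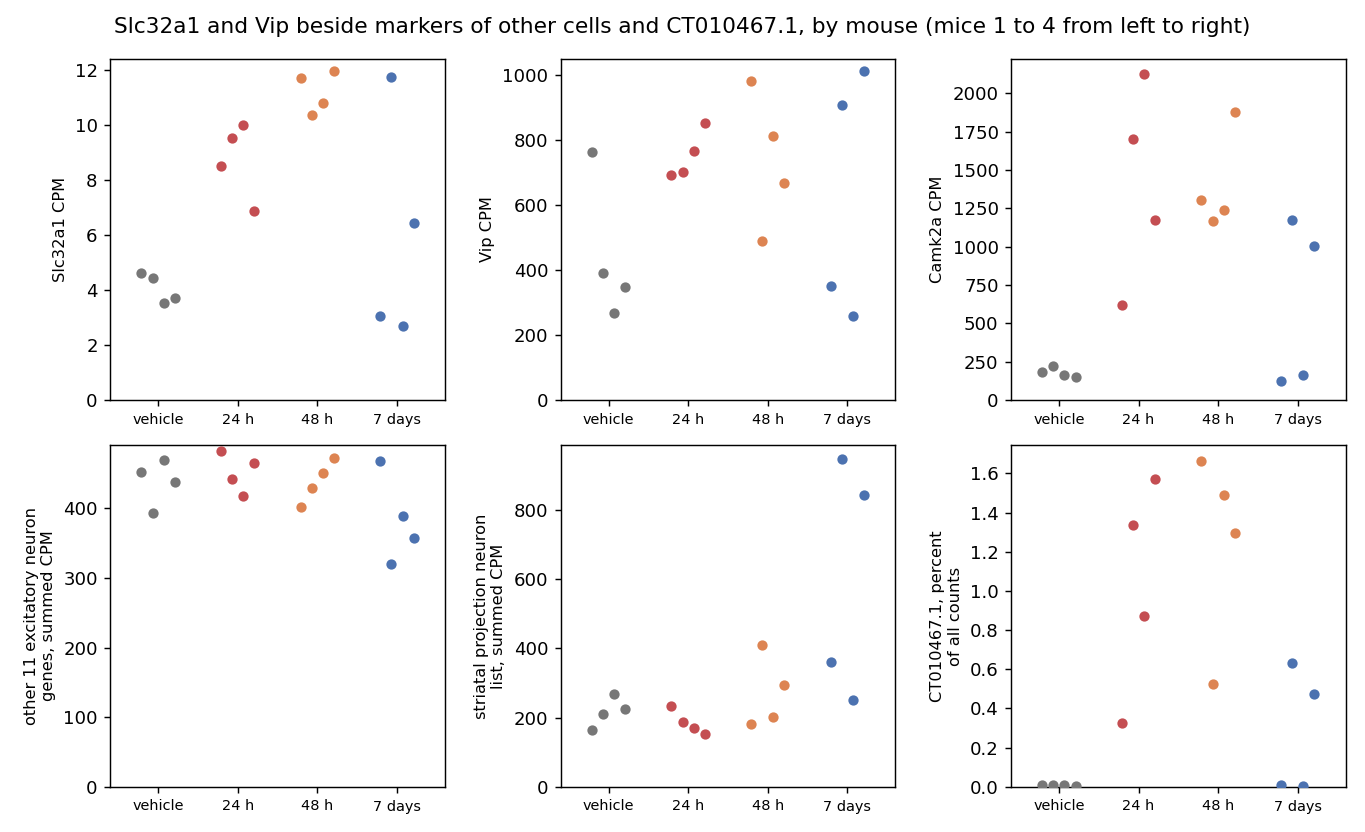
Slc32a1 and Vip CPM, Camk2a CPM, the summed CPM of the other 11 excitatory genes and of the striatal list, and the percent of counts on CT010467.1, with 1 point per mouse and mice 1 to 4 from left to right in each group. In the 7-day group mice 2 and 4 are the higher pair in each panel except that of the other 11 excitatory genes, where they are the lower pair.

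The genes most like each of the 10 were found by the mean absolute difference of log2 CPM profiles over the 16 mice, each profile centred on its own mean, as a description. Among the 10, Gad1 and Gad2 were closest to each other (0.13). Sst and Cck differed by 0.25, and Npy was nearest to Sst (0.27). Slc32a1 was nearest to Vip (0.34) and farthest from Gad1 (0.93). The next values are for genes outside the 10 that averaged 3 or more in log2 CPM. Of these, the 2 nearest to Gad1 were Terf2ip (0.14) and Cct8 (0.15), and those to Gad2 were Smad2 (0.13) and Camk4 (0.13). Those to Slc32a1 were Tmem178b (0.19) and D430041D05Rik (0.19). Dad1 was among the 2 nearest of both Npy (0.12) and Sst (0.20), with Erp29 (0.14) for Npy and Tmem14c (0.18) for Sst. Cck lay nearest to Cox4i1 (0.13) and Mif (0.14), and Vip to the ribosomal protein genes Rpl7 (0.21) and Rpl26 (0.23). Pvalb lay nearest to Prdx5 (0.22) and Eipr1 (0.23), Lamp5 to Gabrd (0.14) and Twf2 (0.15), and Reln to Slc23a2 (0.08) and Herc2 (0.09). The median over genes of this difference was 0.34 for Reln, the steadiest gene, and 0.74 for Slc32a1.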

How the data were processed

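Counts per gene were deposited for 32 RNA libraries of 16 mice. Per the file headers, the authors obtained these counts with featureCounts 2.0.0 from exons grouped by Ensembl gene ID (GRCm38). No option was set for overlapping features, multi-mapping reads, pairs or strand, so antisense reads count toward the gene they overlap. The submitters' processing notes name mm10, Trim Galore 0.6.5 and Bowtie2 2.4.1 with no role. The headers gave the labelled group for all 32 libraries and mouse number 6 for 3 mice (24 h mouse 1, 48 h mouse 2, 7 days mouse 2), and the labels' numbers were kept. Of 55401 gene IDs, 55141 (99.5%) were matched to a symbol.

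The 2 libraries of a mouse differed by more than sampling noise and were summed. Genes passing filterByExpr (17941) were analysed with edgeR 4.0.16 (TMM scaling, quasi-likelihood, 4 groups in 1 fit, R 4.3.3), with Benjamini-Hochberg adjusted p below 0.05 as the threshold. The fit was tested on simulated data. The smallest level shown by the depth, 3 counts, was 0.254 to 0.502 CPM per mouse, a limit of counting only since reads had no molecular identifiers. The 10 genes and the lists were chosen with earlier results of these data known. Named beside the 10 genes were, from each list, up to 3 genes past the threshold with the largest change per comparison with vehicle, or else the gene with the smallest p at 24 h, and the 2 genes most like each. Some list genes that this rule names are not reported here. Alternatives were RLE factors, total counts, other filters, DESeq2 1.42.0, single libraries, the 2 groups alone, a block by mouse number and each mouse left out. Promoter windows came from RefSeq (GRCm38.p6).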

Additional observations from a re-analysis of the deposited data

Results flagged for a closer look

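In the 7-day group, mouse 1 stood apart from the other 3 mice for Gad1 and for the sum of Gad1, Gad2 and Slc32a1. Its Gad1 level was 638 CPM, and the nearest of the others was 433 CPM. The gap was 0.835 of the range of the group, above Dixon's 95% critical value for 4 samples. Its summed CPM of Gad1, Gad2 and Slc32a1 was 876, with the nearest mouse at 619.9 and a gap of 0.875 of the range. The second value holds the first, since Gad1 makes up most of the sum. For Gad2 alone this mouse was not marked, at 235 CPM with the nearest mouse at 215. The criterion was applied to 48 sets of 4 mice, of which chance alone would mark about 2.4, and these 2 were marked. This mouse had the most counts of the 16 mice, 12354785, and its CT010467.1 share of 0.00834% was near those of the vehicle mice. The part of these differences in its Gad1 level was not tested.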

How the results depend on the processing

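Gad1 at 24 h and Slc32a1 at 48 h kept their direction and their side of the threshold in all 18 alternatives. Among the genes called at 24 h, Gad2 was lost with total counts and with library 1 alone, Slc32a1 in 5 settings besides leaving out a mouse, and Cck with the replicate block. Gad1 at 48 h was lost with total counts and with library 1 alone. Total counts in place of TMM factors shifted the mean log2 scaling against vehicle by 0.105 at 24 h and 0.097 at 48 h. They turned the sign of Reln at 24 h (0.075) and 48 h (0.043) and of Pvalb at 48 h (0.068), and left 1 of the 10 genes called among the 4 groups, with 17.9% of all genes. Library 1 alone turned Reln at 24 h (0.044) and library 2 alone Pvalb at 48 h (0.131), and none of these values passed the test. Counts of the 10 genes called were 2 at 24 h, 1 at 48 h and 0 among the 4 groups with library 1 alone (25, 30.8 and 19.8% of all genes), 4 at 48 h without a filter (15.5%), and 5 at 48 h with only the 2 groups compared (41.5%). Counts of the other list genes were 10 at 24 h and 4 at 7 days without a filter (13 and 2.62% of all genes), 11 at 48 h and 2 at 7 days with DESeq2 (35.3 and 4.44%), and 11 at 24 h and 13 at 48 h with only the 2 groups compared (36.7 and 41.5%). The cause was not tested.

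Mice with the same number in the labels did not deviate together on average. Their deviations from the group means had a mean correlation of -0.04 (-0.28 to 0.24), against 0.01 for other numbers. These values cannot decide whether mice were handled in pairs, also because the headers give 3 mice another number. With the number as a replicate block, 2 of the 10 genes were called at 24 h, 2 at 48 h and 1 among the 4 groups (20.4, 26 and 13.4% of all genes), and 4 of the list genes at 48 h. Slc32a1 and Cck at 24 h then had adjusted p of 0.0559 and 0.057.

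Leaving out each mouse in turn gave 1 to 4 of the 10 genes both at 24 h and at 48 h and 0 at 7 days against vehicle, where the shares of all genes were 13.9 to 21.2%, 19 to 26.4% and 0 to 7.26%. It gave 0 between 48 h and 24 h, 0 between 7 days and 24 h, 0 to 1 between 7 days and 48 h and 0 to 2 among the 4 groups, with 0%, 0 to 1.67%, 0 to 2.37% and 8 to 24.3% of all genes. Of the list genes, 4 to 9 were called at 24 h, with 1 to 10 at 48 h and, at 7 days, 0 to 4 (Tac1, Eya4, Penk and Sv2c without 7-day mouse 1 or 3). Signs turned for Lamp5 at 24 h (-0.151 to 0.254) and 7 days (-0.066 to 0.131), Pvalb at 24 h (-0.445 to 0.010) and 48 h (-0.318 to 0.133), Reln at 24 h (-0.118 to 0.073) and Slc32a1 at 7 days (-0.019 to 0.801), none of them called. Without 24 h mouse 1 and 48 h mouse 1, which had the fewest detected genes (chosen after seeing the data), 1 gene was called among the 4 groups (13.8% of all genes), Slc32a1 at 24 h was lost (adjusted p = 0.0751) and Gad2 at 48 h passed (adjusted p = 0.0425). Without division by exon length, 5 of 10 genes kept their rank. With 23 to 105 counts per mouse, Slc32a1 has the least precise level of the 10 genes.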
